A study of Rattus norvegicus with 12 samples.

Results

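The genes described here are those that cells switch on when an interferon reaches them. A list of 41 such genes was taken by symbol, and 40 of them were found in both expression tables, out of 25620 genes counted. *Samd9l* was the member with no row under its symbol. The tissue was skin from dorsal full-thickness wounds of male SD rats made diabetic with streptozotocin, a toxin that destroys the insulin-producing cells of the pancreas. Every library, the control ones included, therefore came from a diabetic, wounded animal. The control wounds received normal saline. The d-SMG wounds received the dried mucus gel of the snail *A. fulica*, a natural tissue adhesive. The GAG wounds received the sulfated glycosaminoglycan of that mucus, a heparin-like chain called s-GAG in the study. The Alg wounds received a commercial alginate dressing. Of the dressings compared, d-SMG was left on and Alg was renewed. RNA was sequenced on days 3, 7, and 14, with 1 library for each of the 12 combinations of treatment and day. Whether a library came from 1 animal or from a pool is not given in the sources used here.

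Interferons are secreted proteins that alert neighboring cells to viruses and to nucleic acids released from damaged cells. Type I and type III interferons signal through the kinases JAK1 and TYK2 to a complex with STAT2 and IRF9 that binds a promoter motif called the interferon-stimulated response element (ISRE). Interferon gamma acts through a second motif, the gamma-activated site (GAS). The products of the induced genes degrade viral RNA, block its translation, trap virions, or strengthen the sensing and signaling itself. In skin, the response can follow injury, when plasmacytoid dendritic cells and macrophages meet nucleic acids from dying cells.

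The depth of the libraries ranged from 13748887 to 38302461 reads on genes, and the members together took between 0.0437% and 0.788% of them. Levels are given as CPM, the reads of a gene relative to its library's total, scaled by the TMM factors of edgeR, which center the bulk of the genes between libraries. A pair of libraries stood apart from the rest. The library labelled d-SMG on day 3 was nearly without keratinocyte markers, whose summed level was 46.3 CPM against 3758 to 29729 CPM in the other 11 libraries, so the skin label was not borne out by the epidermal markers there. Its sebaceous markers *Awat2* and *Far2* were at 0 reads, and its skeletal muscle markers reached the highest sum, 235792 CPM. The library labelled GAG on day 14 had the lowest macrophage sum, 693 CPM, and its shares of genes 2-fold lower or higher than in control were the largest of the 9 comparisons (31% and 26.3%). In bulk tissue, fewer cells of a type and less RNA per cell cannot be told apart. With 1 library per group, a comparison of a single dressing with the control of its day has no replicate check and no test, and an interval on it covers the counting error only.

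The interferon response genes were at their highest in the control wound on day 3. The median level of the 40 members was 89.7 CPM in that library. On the same day it was 8.32 CPM in d-SMG, 30.6 CPM in GAG, and 14.0 CPM in Alg. On day 7 the medians lay close together, at 15.4 CPM in control, 19.8 CPM in d-SMG, 20.4 CPM in GAG, and 18.0 CPM in Alg. On day 14 the control wound was again the highest, at 25.0 CPM, with 17.6 CPM in d-SMG, 7.63 CPM in GAG, and 16.0 CPM in Alg. Of the 40 members, 38 had their highest level over the 12 libraries in the control wound on day 3, which was the highest library for 7.32% of the 12753 genes that reached 100 reads somewhere. The exceptions were *Ifit1*, highest in GAG on day 3, and *Trim25*, highest in Alg on day 14. The next highest library was GAG on day 3 for 25 members. The lowest library was GAG on day 14 for 22 members and d-SMG on day 3 for 13.

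**Figure D1:**
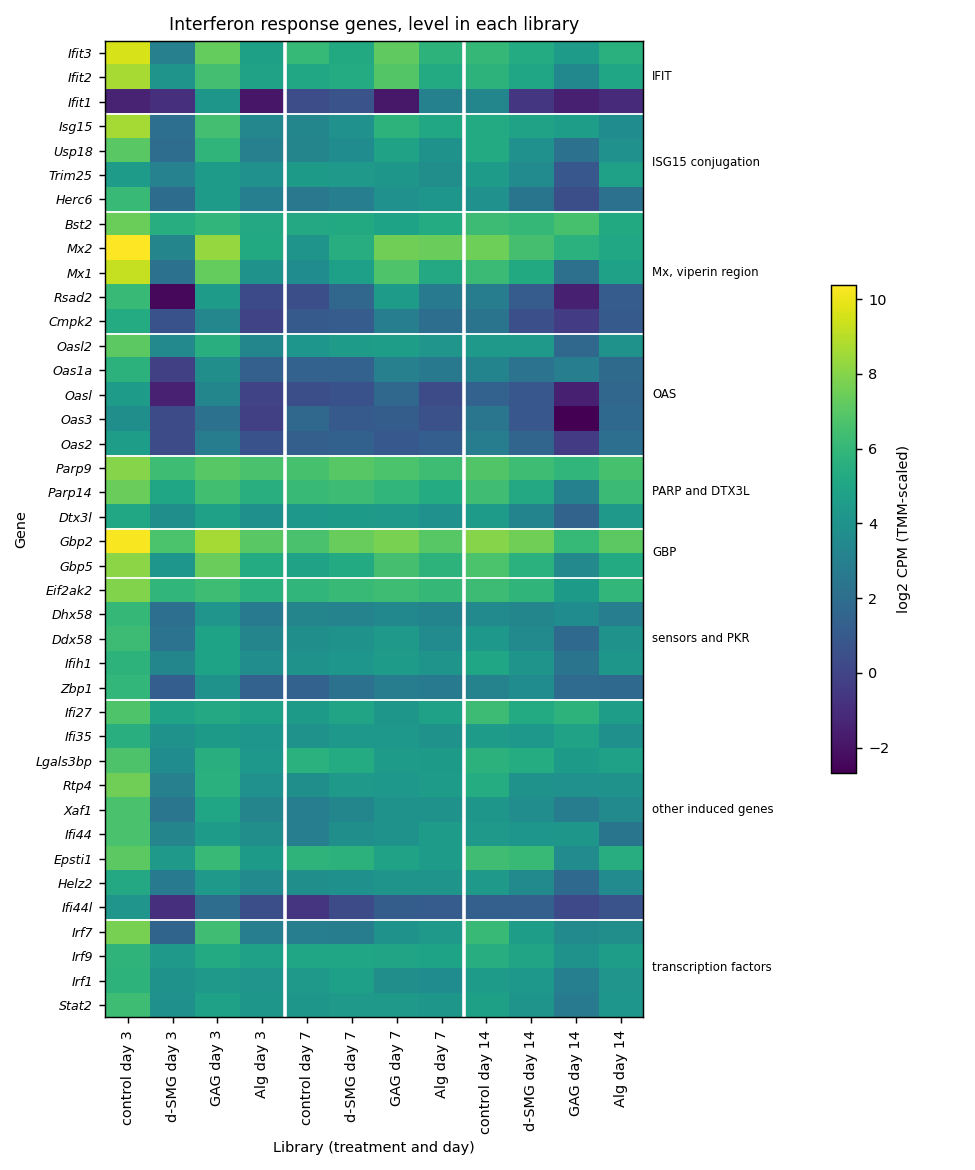
Level of each of the 40 interferon response genes (rows, grouped by role) in each of the 12 libraries (columns, by day), as log2 CPM on a color scale. The column of the control wound on day 3 is the brightest for 38 of the 40 genes, and the row of *Ifit1* is dark in that column.

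The promoters show what most of these genes have in common in sequence. Promoters of 30 of the 40 members were found in the RefSeq table of the rat genome (build GRCr8), and the 250 bases before each transcription start were searched on both strands. The ISRE core was searched as GAAANNGAA and the GAS core as TTCNNNGAA, where N is any base. The GAS core reads the same on both strands. The ISRE core was present in 19 of the 30 promoters (63.3%), against 7.99% of 27457 promoters searched in the same way. Of its 26 matches, 20 began within 100 bases of the start. The GAS core was present in 6 of the 30 (20%), against 7.52% of all promoters. A match describes the letters in this window, and binding was not measured. The capitals mark the ISRE core in *Bst2*, *Ifit3*, and *Irf7*, which held the most ISRE matches in their role groups (ties by mean level). They mark the GAS core in *Irf1*, which was chosen after its values were seen. *Bst2* encodes tetherin, which holds budding virions at the cell surface (chr16:18254968-18255217, minus strand). *Ifit3* encodes an antiviral protein (chr1:241527076-241527325, plus strand). *Irf7* encodes a transcription factor that amplifies type I interferon (chr1:205800024-205800273, minus strand). *Irf1* encodes a transcription factor induced by interferon gamma (chr10:38417685-38417934, plus strand). Each sequence is the gene's strand from 250 bases to 1 base before the start. In *Bst2* 2 overlapping matches run together. No promoter was at hand for *Isg15*, *Mx2*, or 8 other members.
Bst2: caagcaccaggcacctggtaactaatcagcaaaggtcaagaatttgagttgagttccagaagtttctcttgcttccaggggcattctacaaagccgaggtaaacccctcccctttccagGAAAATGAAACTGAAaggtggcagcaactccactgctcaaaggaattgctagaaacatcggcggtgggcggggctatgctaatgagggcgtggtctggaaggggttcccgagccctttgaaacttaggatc
Ifit3: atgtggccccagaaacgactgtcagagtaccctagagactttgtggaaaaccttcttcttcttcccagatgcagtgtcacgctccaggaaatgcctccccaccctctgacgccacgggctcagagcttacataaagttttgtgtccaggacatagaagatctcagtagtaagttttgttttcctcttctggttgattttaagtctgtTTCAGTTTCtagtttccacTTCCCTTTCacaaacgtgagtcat
Irf7: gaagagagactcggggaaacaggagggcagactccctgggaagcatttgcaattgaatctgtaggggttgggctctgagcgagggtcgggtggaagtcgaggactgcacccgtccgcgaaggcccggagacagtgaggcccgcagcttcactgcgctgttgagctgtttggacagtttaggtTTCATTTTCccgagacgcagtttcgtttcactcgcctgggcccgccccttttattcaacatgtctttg
Irf1: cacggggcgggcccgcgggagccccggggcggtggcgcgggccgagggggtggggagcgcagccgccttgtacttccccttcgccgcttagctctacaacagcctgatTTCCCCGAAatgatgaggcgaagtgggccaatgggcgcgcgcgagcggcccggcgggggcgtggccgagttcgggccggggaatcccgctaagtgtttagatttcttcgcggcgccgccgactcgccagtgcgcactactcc

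The members with an ISRE core differed more from the control on day 3 than those without one. In d-SMG, the median log2 fold change was -3.61 over the 19 members with the core and -1.77 over the 11 without it. In Alg, these medians were -3.21 and -1.61, and in GAG -1.59 and -1.12. The ranges overlapped in all 3 comparisons, *Mx1* (log2 -7.02 in d-SMG) being a gene without the core that was far below its control level. *Irf1* and *Irf9*, with a GAS core and no ISRE core, had some of the smaller differences, at log2 -1.77 and -1.41 in d-SMG. These are descriptions of the same 3 comparisons, which share the control library, and no test was made.

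**Figure D2:**
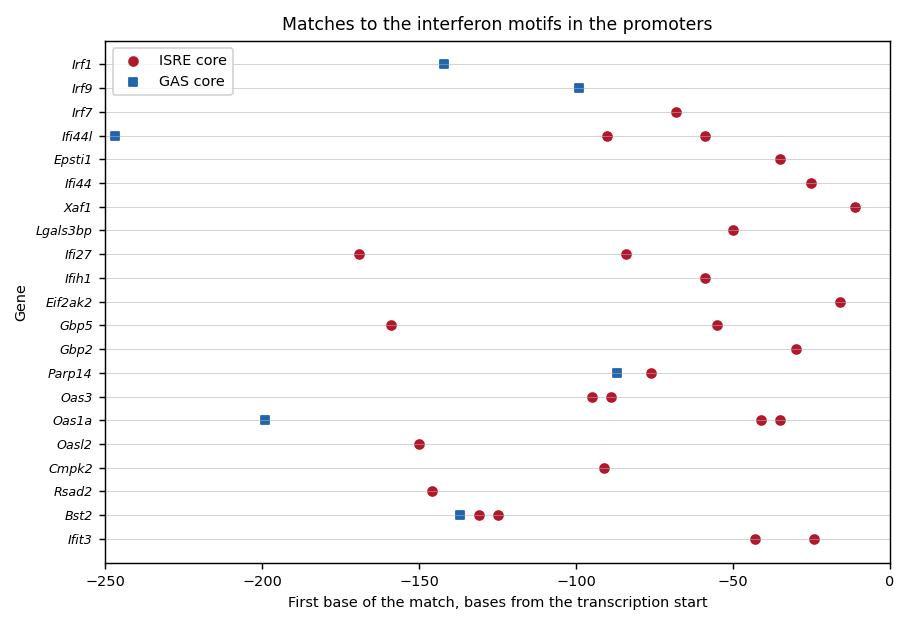
Position of each match to the ISRE core (red circles) and the GAS core (blue squares) in the 250 bases before the transcription start (horizontal axis, in bases from the start) of the 21 members that held one (vertical axis). Most ISRE matches lie within 100 bases of the start.

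On day 3, each dressing was compared with the control wound. A gene was counted when it had at least 10 reads in the pair of libraries and a 2-fold difference. In d-SMG, 39 of the 40 members were at least 2-fold lower and none was 2-fold higher, against 13.9% of all genes lower and 9.84% higher. Their median log2 fold change was -3.78, while the median over all genes was 0.00. In Alg, 38 members were at least 2-fold lower and none higher, against 8.56% and 11.1% of all genes, with a median of -3.18. In GAG, 31 members were at least 2-fold lower and 1 was higher, against 11.4% and 13.9% of all genes, with a median of -1.56. The members furthest below the control in d-SMG were *Rsad2* (log2 -8.56), *Mx2* (-7.12), and *Mx1* (-7.02). In Alg they were *Rsad2* (-5.91), *Cmpk2* (-5.32), and *Isg15* (-5.22), and in GAG *Ifit3* (-2.29), *Ifit2* (-2.22), and *Ifi44l* (-2.12). The member that was 2-fold higher in GAG was *Ifit1*. The 3 comparisons of a day share the control library, so that a high or low value in it moves all 3.

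On day 7, the order of the groups was not that of day 3. In GAG, 18 members were at least 2-fold higher than in control and 2 were lower, against 13.2% and 12.4% of all genes, and the median was 0.49 on the log2 scale. In Alg, 13 members were 2-fold higher and 3 lower, against 12.2% and 11.9% of all genes, and the median was 0.15. In d-SMG, 3 members were 2-fold higher and none lower, against 7.28% and 5.51% of all genes, and the median was 0.22. Furthest above the control were *Rsad2* (log2 4.09), *Mx2* (3.51), and *Mx1* (3.11) in GAG, and *Mx2* (3.36), *Ifit1* (2.65), and *Rsad2* (2.28) in Alg. In d-SMG they were *Mx2* (1.42), *Rsad2* (1.18, from 65 reads against 20), and *Mx1* (1.01), followed by *Ifi44l* (just under 2-fold, from 26 reads against 9) and *Ifi44* (0.89). The members lower than in control in all 3 dressings on this day included *Lgals3bp*, which encodes a secreted galectin-binding glycoprotein, at log2 -0.32 in d-SMG, -1.15 in GAG, and -1.26 in Alg. In the same order, *Oas3* was at -0.69, -0.56, and -1.14, and *Trim25* at -0.12, -0.22, and -0.67. *Ifit1* was the lowest in GAG (-2.23, from 10 reads against 19). *Epsti1* was lower in GAG (-0.92) and Alg (-1.32), as was *Irf1* (-0.56 and -0.66), while *Parp14* was lower in Alg (-0.74) and *Ifit3* in d-SMG (-0.77).

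On day 14, the members were again mostly below the control. In GAG, 32 members were at least 2-fold lower and none was higher, with a median of -2.23, but 31% of all genes were also 2-fold lower in that library. In Alg, 16 members were 2-fold lower and none higher, against 11.6% and 9.3% of all genes, with a median of -0.82. In d-SMG, 11 members were 2-fold lower and none higher, against 15.7% and 12.4% of all genes, with a median of -0.72. *Ifit1* was among the 3 members furthest below the control in all 3 dressings, followed by *Cmpk2* (-1.85) and *Rsad2* (-1.69) in d-SMG and by *Mx2* (-2.38) and *Irf7* (-2.35) in Alg. In GAG it stood between *Oas3* (-5.14) and *Rsad2* (-4.31). The members above the control were *Zbp1* (0.54) and *Oasl2* (0.00) in d-SMG, *Ifi35* (0.37), *Bst2* (0.30), and *Dhx58* (0.14) in GAG, and *Trim25* (0.33) and *Oasl* (0.24) in Alg. All of these were under 2-fold.

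**Figure D3:**
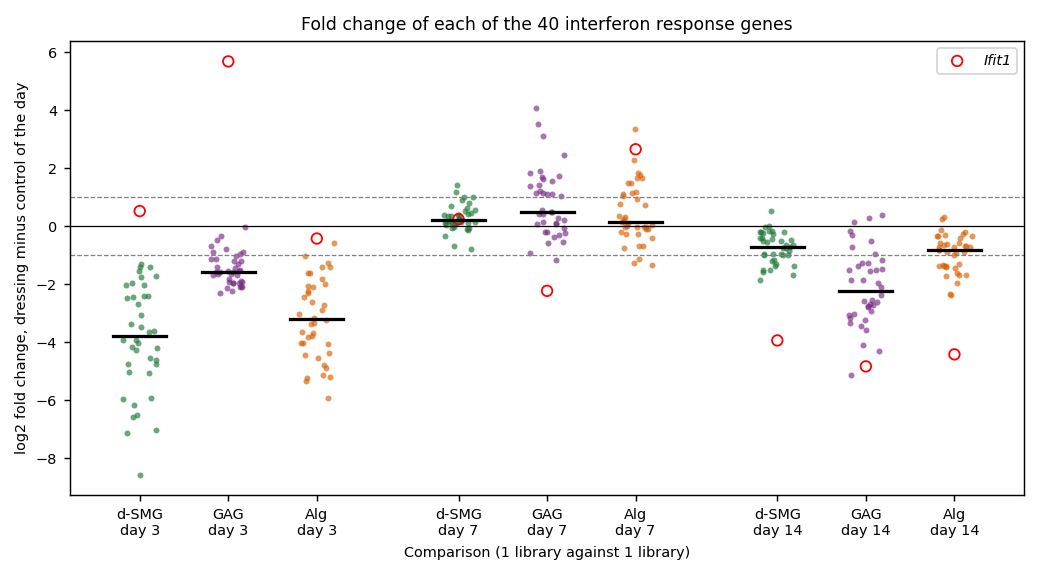
Log2 fold change of each of the 40 members (points) between a dressing and the control of the same day (vertical axis), for the 9 comparisons (horizontal axis), with the median as a black bar, *Ifit1* as an open red circle, and dashed lines at 2-fold. On day 3, 39 points of d-SMG, 31 of GAG, and 38 of Alg lie on or below the lower dashed line, while on day 7 the points lie on both sides of 0.

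The days served as replicates when the treatments were compared over the whole time course, with day and treatment as terms in the quasi-likelihood test of edgeR. For the 3 dressings together against the control, all 40 members were lower, with a median log2 fold change of -1.27. No member and no gene (0%) passed an FDR of 0.05, and the smallest adjusted p-value of a member was 0.958. At an unadjusted p under 0.05, there were 10 members of 40 (4.83% of all genes). DESeq2 called 0 members and put 24 under that unadjusted p. The shares of all genes are those of edgeR. For DESeq2 they were not counted, so its counts here and below have no background beside them. In edgeR the smallest p-values were those of *Lgals3bp* (log2 -1.28 ± 0.41 SE), *Irf1* (-0.87 ± 0.33), and *Rtp4* (-1.68 ± 0.64), a chaperone of receptors. These shared the adjusted p of 0.958. Without the control library of day 3 the median was -0.35 with 0 members under an unadjusted p of 0.05. Without the d-SMG library of day 3 it was -0.90 with 4 members under that p. For these refits the shares of all genes were not counted.

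Each dressing taken alone gave the same outcome in the edgeR test, with 0 members and 0% of genes called at the FDR. In d-SMG, all 40 members were lower with a median of -1.53, and 3 members, *Cmpk2*, *Rtp4*, and *Oas1a*, had an unadjusted p under 0.05 (1.35% of all genes; 16 members by DESeq2, 0 called). In Alg, all 40 were lower with a median of -1.43, and 3 members, *Lgals3bp*, *Ifi27*, and *Epsti1*, had one (3.12% of all genes; 16 by DESeq2, 0 called). In GAG, 39 were lower with a median of -1.01, and 1 member, *Irf1*, had one (9.26% of all genes; 4 by DESeq2, 0 called). Without the control library of day 3, the GAG median was 0.16 and the d-SMG and Alg medians were -0.67 and -0.47. Without the d-SMG library of day 3, the d-SMG median was -0.73. This model holds 1 effect per treatment, so that a dependence on the day enters its error.

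Days were compared over the 4 treatments in the same model. Between day 7 and day 3 the median was -0.60 with 0 members called and 0 at an unadjusted p under 0.05 (1.81% of all genes), and without the control wounds it was 0.14. The median between day 14 and day 3 was -0.80 with 0 called and 0 under that p (4.95% of all genes), and between day 14 and day 7 it was -0.19 with 0 called and 0 under that p (3.12% of all genes). DESeq2 called 0 members in each. The members with the smallest p-values were *Bst2*, *Ifi27*, and *Oas2* for day 7 against day 3 (log2 -0.83 ± 0.44 SE for the first), *Herc6*, *Stat2*, and *Cmpk2* for day 14 against day 3 (-1.62 ± 0.84 SE), and *Bst2*, *Ifi27*, and *Herc6* for day 14 against day 7 (0.85 ± 0.44 SE). Without the control library of day 3 alone, the median was -0.04 between day 7 and day 3 and -0.01 between day 14 and day 3. Without GAG, the median between day 14 and day 7 was 0.04.

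Within a day, the 3 dressing libraries can also form a group, with the single control library assumed to vary as they do. On day 3, 39 of the 40 members were higher in control, with a median of 2.51 on the log2 scale. The edgeR test called 0 (0% of all genes, smallest adjusted p of a member 0.991), and 14 members had an unadjusted p under 0.05 against 3.16% of all genes. In edgeR the smallest p-values were those of *Ifi27* (log2 1.82 ± 0.30 SE), *Irf1* (1.60 ± 0.28), and *Eif2ak2* (1.91 ± 0.36). Without d-SMG, the median was 2.08. On day 7, 10 members were higher and 30 lower in control, with a median of -0.26, 0 called (0%), and 3 under the unadjusted p, *Mx2*, *Ifi44*, and *Zbp1* (4.45% of all genes; 5 by DESeq2, 0 called). On day 14, all 40 were higher in control, with a median of 0.94, 0 called (0%), and 4 under the unadjusted p (4.58% of all genes), led by *Ifit1* (log2 4.38 ± 0.67), *Irf7* (2.06 ± 0.61), and *Rtp4* (1.40 ± 0.50). The outcome depended on the tool and on the libraries. With DESeq2, *Ifi27* on day 3 and *Ifit1* on day 14 passed the FDR of 0.05. *Ifit1* on day 14 also passed it in the refit without Alg. In all these fits the control arm is 1 library and the spread comes from different treatments. The p-values and calls therefore rest on the assumption that the control varies as the dressings do. When the same contrasts were fitted over all 12 libraries, a fit added after seeing the data, edgeR called 0 members (0% of all genes), and the members with an unadjusted p under 0.05 numbered 27 on day 3, 0 on day 7, and 0 on day 14, against 2.34%, 1.96%, and 7.84% of all genes.

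The change of the control's lead between days was tested as an interaction in the same fit over the 12 libraries. Between day 3 and day 7 the difference had a median of 2.80 over the members, and 39 of 40 were positive. The edgeR test called 0 members (0% of all genes), while 19 had an unadjusted p under 0.05 against 1.96% of all genes. *Ifi44*, *Ifi44l*, and *Rtp4* had the smallest p-values, with differences of 3.93 ± 1.11, 4.73 ± 1.46, and 3.53 ± 1.18 (log2 ± SE). Between day 3 and day 14 the median difference was 1.26, with 0 called (0%) and 3 members under the unadjusted p (4.85% of all genes). These were *Dhx58* (2.61 ± 1.02), *Bst2* (1.72 ± 0.77), and *Ifit1*, which went the other way (-8.66 ± 3.70). No other tool was run on the interaction.

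The Mx and viperin genes held the widest ranges. *Mx1* and *Mx2* encode GTPases that form rings around viral nucleoproteins, *Rsad2* encodes viperin, an enzyme that makes a chain-terminating nucleotide, and *Cmpk2*, its neighbor on the chromosome, encodes a mitochondrial nucleotide kinase. In the order control, d-SMG, GAG, and Alg, which is kept for all values below, *Rsad2* was measured at 72.8, 0.166, 22.8, and 1.18 CPM on day 3, at 1.35, 3.11, 23.5, and 6.70 on day 7, and at 6.93, 2.13, 0.325, and 2.14 on day 14. The control wound on day 3 stood alone at the top, and a second peak lay in GAG on day 7. The read counts of *Rsad2* on day 3 were 1712, 2, 403, and 24. The ratio of control to d-SMG was at least 291 after scaling, computed against 3 reads, with 2 reads in the lower library. The log2 interval for d-SMG against control was -11.82 to -6.92 (exact binomial at 95%). *Mx2* was measured at 1336, 9.57, 319.7, and 38.3 CPM on day 3, at 16.7, 44.6, 190.3, and 171 on day 7, and at 181, 91.4, 50.1, and 34.7 on day 14. Its level in d-SMG on day 3 was below that of every other library, and on day 7 it was the control that was lowest. The reads of *Mx1* and *Mx2* can be split uncertainly, since the genes are near copies of each other. *Bst2* had the highest mean level of this group per length (70.5 FPKM). It was measured at 177, 44.0, 60.3, and 36.2 CPM on day 3, at 36.6, 37.5, 29.6, and 41.1 on day 7, and at 77.0, 66.0, 94.7, and 38.5 on day 14, and after the control on day 3 its highest level was in GAG on day 14. All 5 genes of the group were at least 2-fold lower in each dressing on day 3, against 13.9% of all genes in d-SMG, 11.4% in GAG, and 8.56% in Alg. On day 7, 4 were 2-fold higher in GAG, 4 in Alg, and 3 in d-SMG, against 13.2%, 12.2%, and 7.28% of all genes. On day 14 all 5 were 2-fold lower in Alg, 4 in GAG, and 2 in d-SMG, against 11.6%, 31%, and 15.7% of all genes. These shares also stand beside the counts of the groups below.

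Of the IFIT proteins, IFIT1 binds viral RNA that lacks the methyl marks of the cell's own messages. *Ifit3*, the highest of them per length (55.5 FPKM on average), was measured at 779, 8.16, 159, and 26.6 CPM on day 3, at 66.1, 38.7, 146, and 54.6 on day 7, and at 64.4, 41.1, 22.3, and 48.3 on day 14. The day 3 control was 4.90 times the next highest library, GAG on day 3. *Ifit2* followed it, from 10.6 CPM in GAG on day 14 to 410.2 CPM in control on day 3. *Ifit1* did not. Its read counts were 8, 6, 330, and 5 on day 3, then 19, 32, 10, and 124 on day 7, and finally 205, 10, 5, and 7 on day 14. It was low in the day 3 control, where *Ifit2* and *Ifit3* were at their peak, and high in GAG on day 3, in Alg on day 7, and in control on day 14. Against the control of the day its log2 fold change was 5.68 in GAG on day 3 (interval 4.79 to 7.01), with 0.52 in d-SMG (-1.25 to 2.27) and -0.42 in Alg (-2.42 to 1.33), both within the counting error. On day 7 it was 2.65 in Alg and -2.23 in GAG, and on day 14 -3.93 in d-SMG, -4.83 in GAG, and -4.41 in Alg. A related gene beside it in the table, *Ifit1bl*, looked at after these values were seen, had 336 reads in the day 3 control and 116 in GAG on day 3. Reads of such close copies can be split between them in counting, so that the values of *Ifit1* are uncertain, and their part in the pattern was not tested.

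**Figure D4:**
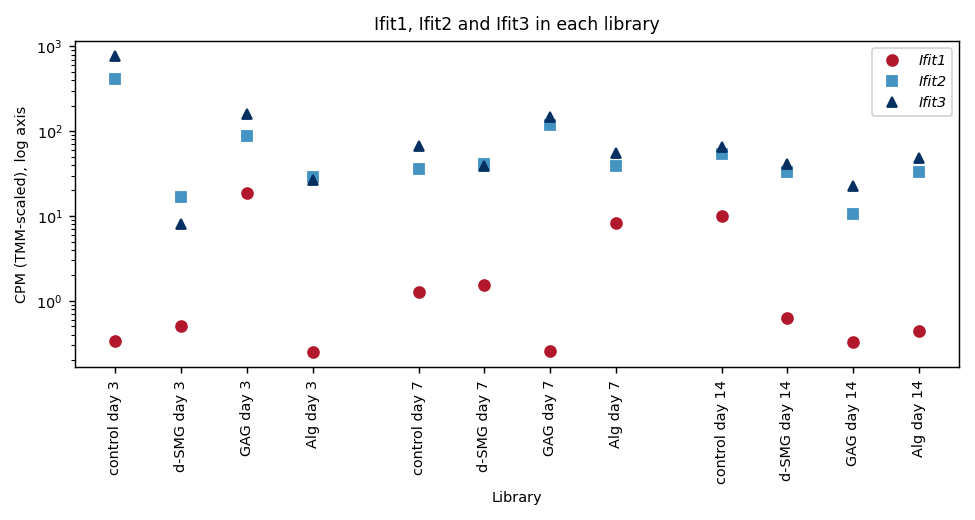
Level of *Ifit1* (red circles), *Ifit2* (blue squares), and *Ifit3* (dark triangles) in each of the 12 libraries (horizontal axis), in CPM on a log axis. *Ifit2* and *Ifit3* peak in the control wound on day 3 at 410.2 and 779 CPM, while *Ifit1* lies at 0.340 CPM there and peaks in GAG on day 3 at 18.7 CPM.

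ISG15 is a small protein that is attached to other proteins like ubiquitin. *Isg15* had the highest mean level per length of its group (83.6 FPKM) and the widest range. It was measured at 389, 4.25, 90.3, and 10.4 CPM on day 3, at 9.82, 15.0, 54.2, and 34.9 on day 7, and at 38.9, 29.2, 23.8, and 12.8 on day 14. The day 3 control was 4.31 times the next highest library, and on day 7 GAG and Alg lay above d-SMG and control. *Usp18*, which removes ISG15 and also blocks the type I receptor, was lowest in d-SMG and highest, at 132 CPM, in control on day 3, and *Herc6*, the ligase that attaches ISG15 in rodents, from 1.36 to 69.2 CPM. *Trim25*, a ubiquitin ligase that helps to activate RIG-I, differed from them. It was at 13.7 to 27.9 CPM in 9 of the 12 libraries and below that in d-SMG on days 3 and 14 and in GAG on day 14. On day 3, 4 genes of the group were at least 2-fold lower in d-SMG, 3 in GAG, and 3 in Alg.

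The OAS enzymes sense double-stranded RNA and make the second messenger that switches on RNase L, except for the OAS-like proteins, of which some lack this activity. *Oasl2*, the highest per length (9.66 FPKM), was measured at 136, 10.9, 47.5, and 9.92 CPM on day 3, at 18.0, 22.7, 24.1, and 17.6 on day 7, and at 20.6, 20.6, 3.18, and 16.4 on day 14. The day 3 control was its highest library and GAG on day 14 its lowest. *Oas3* had the widest range, at 14.3, 1.25, 4.48, and 0.839 CPM on day 3, at 3.25, 2.01, 2.19, and 1.46 on day 7, and at 5.48, 1.82, 0.130, and 3.47 on day 14. Its lowest value, in GAG on day 14, rests on 2 reads against 113 in control (ratio at least 28.1 after scaling, computed against 3 reads, log2 interval -8.46 to -3.51). *Oas1a*, *Oas2*, and *Oasl* peaked in the day 3 control at 51.9, 24.6, and 22.1 CPM. All 5 genes were at least 2-fold lower in each dressing on day 3. On day 7, 2 were 2-fold higher in GAG (13.2% of all genes), and 1 was higher and 1 lower in Alg (12.2% and 11.9%). *Oas1a* belongs to a family of near copies, and its reads can be split uncertainly.

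The sensors and PKR detect viral RNA and DNA. *Ddx58* (RIG-I), *Ifih1* (MDA5), and *Dhx58* (LGP2) are RNA helicases, *Zbp1* encodes a receptor for left-handed nucleic acids that can start cell death, and *Eif2ak2* encodes PKR, a kinase that halts translation. *Eif2ak2*, the highest per length (18.7 FPKM), was measured at 242, 59.5, 81.2, and 51.2 CPM on day 3, at 60.2, 71.1, 79.7, and 64.5 on day 7, and at 78.7, 59.0, 21.9, and 63.1 on day 14. Outside the day 3 control, 10 of its values lay between 51.2 and 81.2 CPM and only GAG on day 14 lay below. *Zbp1*, with the widest range, was measured at 63.0, 2.33, 16.0, and 2.67 CPM on day 3, at 2.71, 4.73, 7.21, and 6.17 on day 7, and at 8.82, 12.8, 3.64, and 3.47 on day 14. It was the member with the largest positive difference in d-SMG on day 14. *Ddx58*, *Ifih1*, and *Dhx58* peaked in the day 3 control at 78.3, 54.6, and 65.2 CPM. All 5 genes were at least 2-fold lower in d-SMG and Alg on day 3, and 4 in GAG.

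The transcription factors carry the signal. *Stat2* and *Irf9* encode parts of the complex that binds the ISRE, and *Irf1* and *Irf7* encode factors that are themselves induced. *Irf7*, highest per length (17.6 FPKM) and widest in range, was measured at 206, 2.83, 84.1, and 7.45 CPM on day 3, at 7.45, 7.12, 16.3, and 20.8 on day 7, and at 69.3, 24.5, 11.4, and 13.6 on day 14. Control and GAG stood high on day 3, control alone on day 14, and the 4 libraries of day 7 stayed between 7.12 and 20.8 CPM. The other 3 factors varied less. *Irf9* ranged from 15.5 to 56.1 CPM, *Irf1* from 7.73 to 54.7 CPM, and *Stat2* from 6.30 to 79.5 CPM, each with its top in the day 3 control and its bottom in GAG on day 14. All 4 factors were at least 2-fold lower in d-SMG and in Alg on day 3, and 3 were in GAG.

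The PARP and DTX3L genes lie side by side and encode an ADP-ribosyltransferase complex that aids interferon signaling. *Parp9* (13.9 FPKM on average) was measured at 262, 80.0, 129, and 99.2 CPM on day 3, at 96.1, 127, 104, and 79.1 on day 7, and at 116, 79.6, 59.5, and 95.8 on day 14. *Parp14* was measured at 168, 31.6, 87.3, and 47.1 CPM on day 3, at 69.0, 77.6, 59.4, and 41.2 on day 7, and at 82.5, 36.5, 8.25, and 76.0 on day 14, with its lowest value in GAG on day 14. *Dtx3l* ranged from 2.79 CPM in that library to 35.2 CPM in the day 3 control. All 3 were at least 2-fold lower in d-SMG and in Alg on day 3, but only 1 in GAG.

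The guanylate-binding proteins attack the membranes around intracellular pathogens. *Gbp2* had the highest mean level per length of all 40 members (102.6 FPKM). It was measured at 1242, 102, 400.5, and 134 CPM on day 3, at 100.2, 163, 217, and 126 on day 7, and at 258, 191, 67.0, and 136 on day 14. *Gbp5*, which also promotes inflammasome assembly, was measured at 273, 18.0, 171, and 41.6 CPM on day 3, at 28.5, 39.5, 92.5, and 55.0 on day 7, and at 101, 51.3, 11.2, and 39.1 on day 14. Both had the day 3 control first, GAG on day 3 next, and GAG on day 14 last, and both were at least 2-fold higher in GAG than in control on day 7. Reads of this gene family can be split uncertainly between its members.

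The other induced genes behaved less alike. *Ifi27*, which encodes a mitochondrial protein and was highest per length here (44.0 FPKM on average), was measured at 110.3, 28.6, 36.7, and 27.9 CPM on day 3, at 21.7, 30.8, 18.7, and 27.8 on day 7, and at 77.5, 39.7, 54.6, and 23.8 on day 14. The control wounds of days 3 and 14 were its highest libraries. *Ifi44l* had the widest range, at 17.4, 0.499, 3.97, and 1.33 CPM on day 3, at 0.610, 1.24, 2.22, and 2.12 on day 7, and at 2.52, 2.50, 1.10, and 1.58 on day 14. *Xaf1*, a proapoptotic gene, and *Rtp4* spanned 5.49 to 99.8 and 8.08 to 187.8 CPM, both lowest in d-SMG and highest in control on day 3. *Ifi44*, *Helz2*, *Lgals3bp*, and *Epsti1* peaked in the day 3 control at 100.3, 36.4, 107.2, and 134.9 CPM. *Ifi35*, which stayed between 14.6 and 29.2 CPM outside the day 3 control (47.3 CPM), varied least of all members. All 9 genes were at least 2-fold lower in d-SMG and Alg on day 3, and 7 in GAG.

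The ligands themselves were hardly detected. Of 11 type I and type III interferon genes listed, 3 had a row in the table, and *Ifnb1* had 1 read in GAG on day 3 and 0 in every other library. *Ifna1* had at most 5 reads and *Ifna2* at most 1. *Ifng*, for interferon gamma, had 5, 0, 1, and 0 reads on day 3, with 2 in Alg on day 7 and none in its other libraries, and 4, 1, 2, and 0 on day 14. At this depth a difference in the ligands was not detectable. Their receptors were present in every library. *Ifnar1* was measured at 93.7, 69.3, 77.2, and 78.9 CPM on day 3, at 140.1, 135, 67.8, and 58.9 on day 7, and at 88.6, 62.8, 32.3, and 101 on day 14. None of the 6 receptor genes was 2-fold different from control in any dressing on day 3. The kinases *Jak1*, *Jak2*, and *Tyk2* were also under 2-fold on that day.

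Genes further along the pathway were also lower on day 3. Of 14 interferon gamma targets, 13 had enough reads on day 3. At least 2-fold lower were 12 in d-SMG, 9 in GAG, and 12 in Alg, against 13.9%, 11.4%, and 8.56% of all genes. On the later days 12 or 13 had enough reads. On day 7, 2 were 2-fold lower and 4 higher in GAG, 2 and 2 in Alg, and 0 and 2 in d-SMG. On day 14, 9 were lower in GAG, 5 in Alg, and 3 in d-SMG, and none was 2-fold higher. The shares of all genes on those days stand below. *Cxcl10*, a chemokine that draws T cells, was measured at 51.9, 0.832, 7.43, and 0.691 CPM on day 3, at 0.203, 1.20, 15.8, and 1.86 on day 7, and at 1.36, 1.25, 0.390, and 0.819 on day 14. On day 7 it had 3 reads in the control and 621 in GAG. *Gbp1*, by contrast, was high in control both on day 3 and on day 14, at 70.2, 27.0, 57.9, and 5.48 CPM on day 3, at 2.24, 3.97, 9.34, and 12.1 on day 7, and at 103, 4.94, 7.86, and 2.90 on day 14. Of 20 further interferon-induced genes, 18 were 2-fold lower in d-SMG on day 3, 9 in GAG, and 17 in Alg, against 13.9%, 11.4%, and 8.56% of all genes. They were led by *Oas1b* in d-SMG (-6.60) and GAG (-2.02) and by *Oas1i* in Alg (-4.22). *Ddx60*, an RNA helicase, was at log2 -4.88 in d-SMG and -2.89 in Alg. On day 7, 2 of these 20 were 2-fold lower and 2 higher in GAG, which is near the shares of all genes (12.4% and 13.2%). In Alg 4 were lower and 1 higher (11.9% and 12.2% of all genes), and in d-SMG none was either way (5.51% and 7.28%). On day 14, 12 were 2-fold lower in GAG, 7 in d-SMG, and 5 in Alg, against 31%, 15.7%, and 11.6% of all genes. In the tests over the 12 libraries, no gene of these lists passed the FDR.

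Sensors and adaptors upstream of the interferons varied less than the members. Of 12 with a row, 3 were at least 2-fold lower in d-SMG on day 3 (*Cgas* -2.02, *Tlr7* -1.50, *Tlr3* -1.23), 2 were lower and 1 higher in GAG, and 4 were lower in Alg (*Tlr7* -1.91 first). The counts in GAG are near the shares of all genes, 11.4% lower and 13.9% higher, and those in d-SMG and Alg stand beside 13.9% and 8.56% lower. *Cgas* encodes the sensor of DNA in the cytosol, and *Tlr7* and *Tlr3* encode endosomal receptors of RNA. Of the 4 feedback inhibitors, *Socs1* was lower on day 3 (-2.65 in d-SMG, -1.37 in GAG, -1.93 in Alg). *Socs3*, which restrains signaling of the interleukin-6 family, was higher in d-SMG on day 3 (2.34) and on day 14 (3.18) and lower on day 7 (-1.53). In GAG it was at -0.74, -1.74, and 1.32 on days 3, 7, and 14, and in Alg at 0.46, -1.30, and 2.24.

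The members varied together. Over the 12 libraries, the median Pearson correlation of log2 CPM among the 780 pairs of members was 0.79, and 170 pairs were above 0.9. The libraries differ in depth and tissue makeup, which all members share, so these are descriptions. Without the control library of day 3 the median was 0.65. Of the 40 members, 21 correlated above 0.9 with the mean of the others, and 9 did without the control library of day 3. Over the 12 libraries *Usp18* (0.99), *Mx1* (0.97), and *Xaf1* (0.97) led. The least alike were *Ifit1* (0.27), *Bst2* (0.51), *Ifi27* (0.53), *Trim25* (0.59), and *Ifi35* (0.59). Without the day 3 control these correlations were 0.68, -0.02, 0.10, 0.66, and 0.03, in the same order, so that the place of *Ifit1* as the least alike rests on that library. Chromosomal neighbors were not always alike. In RefSeq, 19 members lay within 100 kb of another. *Dtx3l* and *Parp14* correlated at 0.97, *Ifit2* and *Ifit3* at 0.94, *Gbp5* and *Gbp2* at 0.93, and *Rsad2* and *Cmpk2* at 0.91, but *Oas1a* and *Oas3* at 0.46 and *Ifit3* and *Ifit1* at 0.14.

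Among 12713 other genes that reached 100 reads somewhere, those closest to the mean of the members were *Samd9* (0.98), *Gbp4* (0.97), *LOC120093070* (0.96), *Oas1i* (0.95), *Parp12* (0.94), *Pml* (0.94), *MGC108823* (0.94), *Hsh2d* (0.93), *Samhd1* (0.93), and *LOC103690031* (0.92). Without the control library of day 3, the lowest of these 10 correlations was that of *Hsh2d* (0.86). *Samd9*, the most alike, had 4689 reads in control, 212 in d-SMG, 1299 in GAG, and 443 in Alg on day 3.

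Markers of the cells in the wound also differed between the libraries. The summed level of 10 macrophage markers on day 3 was 4299.6 CPM in control, 2535 in d-SMG, 1955 in GAG, and 1505 in Alg, and 5, 5, and 8 of the 10 were at least 2-fold lower in d-SMG, GAG, and Alg. *Lyz2* was the largest term of these sums, at 2536 CPM in control, 1369 in d-SMG, 1004 in GAG, and 487 in Alg. In d-SMG and in Alg, 8 of the markers were lower than in control and 2 were higher. The higher ones, *Cd163* and *Mrc1*, were at 329 and 193 CPM in control, 418 and 209 in d-SMG, and 351 and 200 in Alg. On day 7 the macrophage sum was 3298 CPM in control, 4768 in d-SMG, 1361 in GAG, and 992 in Alg, with 0, 7, and 10 of the markers 2-fold lower in the dressings in that order. The corresponding sums on day 14 were 3033, 1759, 693, and 3492 CPM, with 4, 9, and 0 markers 2-fold lower. In Alg on day 14 the largest term was *Cd163* (1220 CPM), and 6 markers were lower than in control and 4 higher. Of all genes, 13.9%, 11.4%, and 8.56% were 2-fold lower in d-SMG, GAG, and Alg on day 3. In the same order, the shares were 5.51%, 12.4%, and 11.9% on day 7 and 15.7%, 31%, and 11.6% on day 14. The part of macrophage content in the differences of the members was not tested.

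Keratinocyte markers on day 3 summed to 5053 CPM in control, 46.3 in d-SMG, 9481 in GAG, and 8168 in Alg, and all 9 were at least 2-fold lower in d-SMG. In Alg 2 of the 9 were 2-fold lower and 2 higher, and in GAG 5 were higher. On day 7 all 9 were at least 2-fold higher in GAG (median log2 2.12) and in Alg (1.99), and 6 were in d-SMG (1.36), while 5 of 6 fibroblast markers were 2-fold lower in GAG and in Alg. On day 14, 6 keratinocyte markers were 2-fold lower in d-SMG, 4 in GAG, and 1 in Alg, with 2 higher in each. Skeletal muscle markers summed to 84738, 235792, 43201, and 40930.5 CPM on day 3, to 59165, 5550.2, 45218, and 144121 on day 7, and to 57742, 8177, 132153, and 11868 on day 14. All 10 were at least 2-fold higher in d-SMG on day 3, and all 10 were 2-fold lower in d-SMG on day 7 and in d-SMG and Alg on day 14. Plasmacytoid dendritic cell markers summed to 36.4 to 46.0 CPM on day 3, set mostly by *Tcf4* and *Il3ra* (17.3 and 19.9 CPM in control). On that day *Siglech* had 3, 0, 6, and 23 reads and *Spib* 9, 5, 8, and 8. With so few reads, the sum is not read here as a level of these cells. The neutrophil sum on day 3 was lowest in d-SMG (15.2 CPM) and highest in Alg (107 CPM), and the marker *Ngp* was at 0 reads in 11 libraries. In Alg that sum was set mostly by *S100a8* and *S100a9* (25.2 and 70.4 CPM). Of the 5 neutrophil markers with enough reads, 3 were lower in Alg than in control and 2 higher. The neutrophil sum is therefore not read here as a level of these cells. Of 10 T and NK cell markers, 7 were at least 2-fold higher in GAG on day 3, where 31 members were 2-fold lower. The T and NK cell sum was 172 to 303 CPM and was set mostly by *Cd4* (282 CPM in control). *Cd4* was highest in control, while 8 of the 10 markers were higher and 2 lower in GAG than in control. The sum is therefore not read here as a level of T and NK cells. On the same day the fibroblast sum was 6102 to 20334 CPM and the endothelial sum 407 to 815 CPM. Of all genes, 9.84%, 13.9%, and 11.1% were 2-fold higher in d-SMG, GAG, and Alg on day 3. In the same order, the shares were 7.28%, 13.2%, and 12.2% on day 7 and 12.4%, 26.3%, and 9.3% on day 14. The shares of those 2-fold lower are given with the macrophage markers. The part of muscle, epidermis, and fibroblasts in the levels of the members was not tested.

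**Figure D5:**
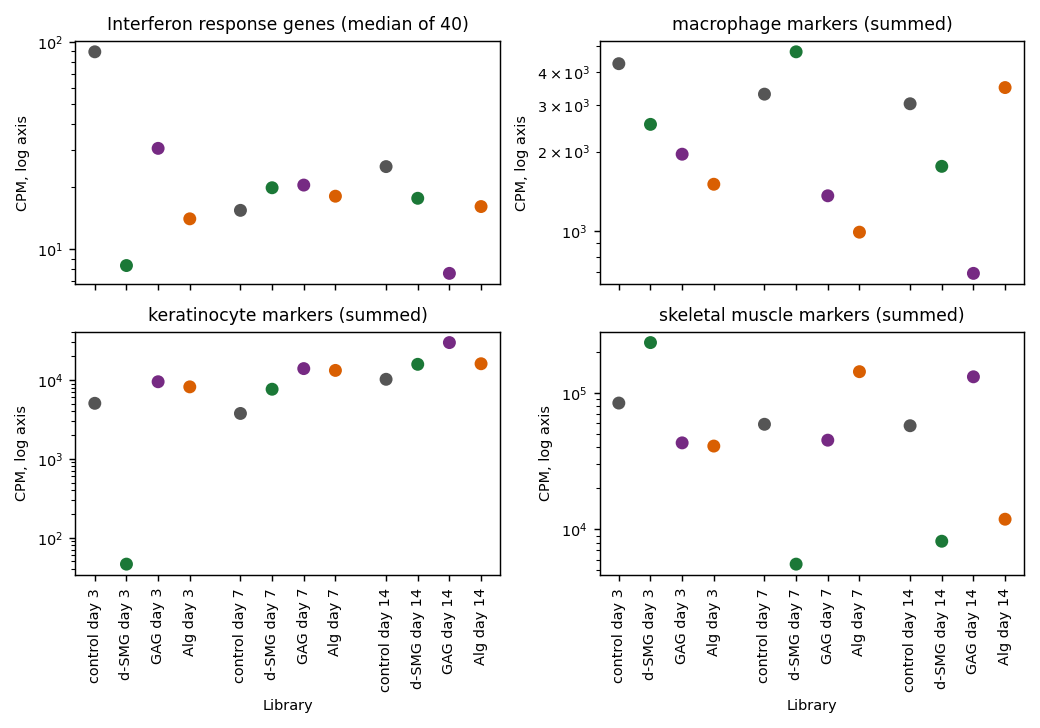
Median level of the 40 members (upper left) and summed levels of macrophage, keratinocyte, and skeletal muscle markers in each library (horizontal axis), in CPM on log axes (gray control, green d-SMG, purple GAG, orange Alg). On day 3 the members are at 89.7 CPM in control and 8.32 CPM in d-SMG, the library in which keratinocyte markers sum to 46.3 CPM.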

How the data were processed

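Wound tissue RNA was sequenced as ribosomal RNA-depleted, stranded total RNA, and the authors deposited read counts per gene and FPKM values (fragments scaled by gene length and library size) made from them. The submitters' processing notes name bcl2fastq, FastQC, TopHat2, and edgeR; the genome build and the counting tool are not given in the sources used here. Samples were grouped by the treatment and day in the labels, 1 library to each. Each table held 1 further column that matched no sample and was not used. Counts were scaled by TMM with edgeR 4.0.16 in R 4.3.3. Differences within a day are log2 ratios of CPM with a prior count of 0.5, for genes with at least 10 reads in both libraries together, with exact binomial intervals at 95%. The tests were edgeR's quasi-likelihood test with treatment and day as terms, or with the dressing libraries of a day as a group, at a Benjamini-Hochberg FDR of 0.05 over all genes tested; DESeq2 1.42.0 was the other tool. The scripts were tested on simulated data. Intervals cover counting error only, and where nothing says that samples came from separate animals the p-values measure only the spread between these libraries. FPKM was used to compare levels between genes. The members and lists were chosen with earlier results of these data known. In each role group, the member with the highest mean FPKM and that with the widest range were named, with the 3 lowest and 3 highest members of each comparison where the larger of the paired counts was 100 or more; *Ifit1bl*, the *Irf1* promoter, and the members named below that minimum were chosen after their values were seen. Promoters came from RefSeq (GRCr8), whose coordinates are not those of the counts. Alternatives were other scalings, read minimums, fold limits, FPKM with pseudocounts of 1 and 0.1, an exact test with an assumed biological variation of 0.3, DESeq2, and leaving out each treatment, day, or library; the fit over 12 libraries was chosen after seeing the data. A gene of the pathway lists is not reported here.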

Additional observations from a re-analysis of the deposited data

Results flagged for a closer look

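The median log2 fold change of the 40 members against the control of the day had opposite signs at different days in each dressing. In d-SMG it was -3.78 on day 3, 0.22 on day 7, and -0.72 on day 14. In GAG it was -1.56, 0.49, and -2.23, and in Alg -3.18, 0.15, and -0.82. With 1 library per group, the difference between days was not tested within a dressing.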

How the results depend on the processing

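Of the counts recomputed under other settings, 253 stayed within 1.5 times their value and 27 did not. The 253 include counts of 0 that stayed 0, among them members called in the tests, so they overstate how steady the other counts were. Of the medians 185 stayed, 2 moved, and 3 changed sign. In each case the cause was not tested. At the other settings below, the shares of all genes were not counted, so the member counts there have no background beside them. The 39 and 38 members lower in d-SMG and Alg on day 3 were among those that stayed. At a 4-fold limit, the members lower in GAG on day 3 numbered 6, those higher on day 7 were 0 in d-SMG, 4 in GAG, and 3 in Alg, those lower on day 7 were 1 in GAG and 0 in Alg, and those lower on day 14 were 1 in d-SMG, 21 in GAG, and 3 in Alg. By an exact test with an assumed biological variation of 0.3, 6 were lower in GAG on day 3, 0, 4, and 2 were higher in d-SMG, GAG, and Alg on day 7, 0 and 0 were lower in GAG and Alg on day 7, and 1 and 3 were lower in d-SMG and Alg on day 14. With FPKM and a pseudocount of 1, 1 member was lower and 10 were higher in GAG and 6 were higher in Alg on day 7, and 4 were lower in d-SMG on day 14. In d-SMG on day 7, 6 members were higher with library totals (median 0.52) and 5 with FPKM and a pseudocount of 0.1 (median 0.46). With at least 50 reads, 1 was lower in GAG on day 7. Scaling by library totals moved the median of all genes to -0.45 in d-SMG on day 3, 0.31 in d-SMG on day 7, and -0.48 in GAG on day 14, where 39, 0, and 34 members were then 2-fold lower.

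Leaving out a day, treatment, or library gave medians of -2.10 to -0.37 for d-SMG, -1.53 to 0.16 for GAG, -2.08 to -0.35 for Alg, and -1.88 to -0.35 for the 3 dressings over 3 days, with 0 members called by edgeR throughout. For day 7 against day 3 they were -1.06 to 0.14 (0.14 without control), for day 14 against day 3 -1.36 to -0.01, and for day 14 against day 7 -0.43 to 0.04 (0.041 without GAG), with 0 called. For control against the dressings of a day they were 2.08 to 3.58 on day 3, -0.43 to -0.17 on day 7, and 0.65 to 1.22 on day 14. The fits without the control or the d-SMG library of day 3 were chosen after seeing the data. The tests over 3 days pair the libraries by day. With 1 library per treatment and day, an animal, a wound, and a treatment cannot be told apart, and *Rsad2*, *Ifit1*, *Oas1a*, *Oas3*, *Oasl*, and *Ifi44l* rest on 10 or fewer reads in some libraries.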
